A study of Caenorhabditis elegans with 9 samples.

Results

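Animals of the n4503 nDf57 double mutant were compared with wild type across all genes of the array. The mutant is strain SX9 of Caenorhabditis elegans, which carries prg-1(n4503) together with prg-2(nDf57), and the wild type is strain N2. The arrays were chosen by their titles, which gives 3 n4503 nDf57 and 3 N2 arrays, 6 of the 9 in the series. The other 3 arrays hold strain MT14769, a second double mutant with prg-1(n4357) and prg-2(n4358), and entered the fit and a comparison of the mutants. All animals were labelled young adults, and the RNA came from whole animals in pellets of the same volume. Of the 22625 probe sets of the Affymetrix array, 77 controls were left out, so that 22548 were described. These cover 17118 genes through probe sets that name 1 gene, and each gene is represented by its probe set with the highest mean. All values are log2 expression levels, and a difference of 1 log2 is a 2-fold change.

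prg-1 encodes the Piwi-class Argonaute of the nematode germline, which binds the small RNAs called piRNAs and with them recognises and silences foreign and selected endogenous transcripts. Silencing is passed on to secondary small RNAs that other Argonautes carry, and much of the machinery sits in P granules at the nuclear surface of germ cells. Animals without prg-1 are known for reduced fertility and a loss of piRNAs. prg-2 is its close relative and is listed as a pseudogene in the reference gene table. Both loci were mutant in the same animals, so neither locus can be set apart from the other. There is 1 strain for this pair of alleles, so the alleles and the rest of the strain's background cannot be told apart. The sources used here do not say what the alleles remove or where the probes lie relative to it. The labels do not state whether the replicates are separate cultures. The p-values then cover the spread of these samples alone, and some of that spread may be technical.

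The probe set of prg-1, one that can also detect related sequences, read 7.50, 6.72 and 7.07 log2 in the n4503 nDf57 arrays, against 6.93, 6.13 and 5.40 log2 in the N2 arrays. That of prg-2 read 6.27, 5.87 and 5.95 log2 in n4503 nDf57 and 6.53, 6.35 and 6.005 log2 in N2. The groups overlap for both genes, with differences of 0.94 log2 (SE 0.61) and -0.26 log2 (SE 0.21). Without N2 replicate 3 the difference of prg-1 was 0.56 log2 and that of prg-2 was -0.41 log2, and without N2 replicate 1 that of prg-2 was -0.15 log2. As the probe positions are unknown here, these levels check no genotype.

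Replicate 1 of n4503 nDf57 stood apart from its own group before any comparison with wild type. It had 266 genes more than 1 log2 above and 909 more than 1 log2 below the mean of the other 2 arrays of its group. Across probe sets it correlated at r = 0.969 and 0.966 with replicates 2 and 3, which correlated with each other at 0.994, and at 0.980 with N2 replicate 2. The 31 moulting genes, which build and shed the cuticle at each larval transition, averaged 6.84, 7.67 and 7.59 log2 in the n4503 nDf57 arrays, against 7.65, 7.02 and 7.61 log2 in the N2 arrays. Replicate 1 of the mutant and replicate 2 of wild type were thus the low arrays, as was n4357 n4358 replicate 3 at 6.82 log2. Many named genes are therefore given by array. For some genes and lists, values with the pair of n4503 nDf57 replicate 1 and N2 replicate 2 left out stand beside the main ones.

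**Figure D1:**
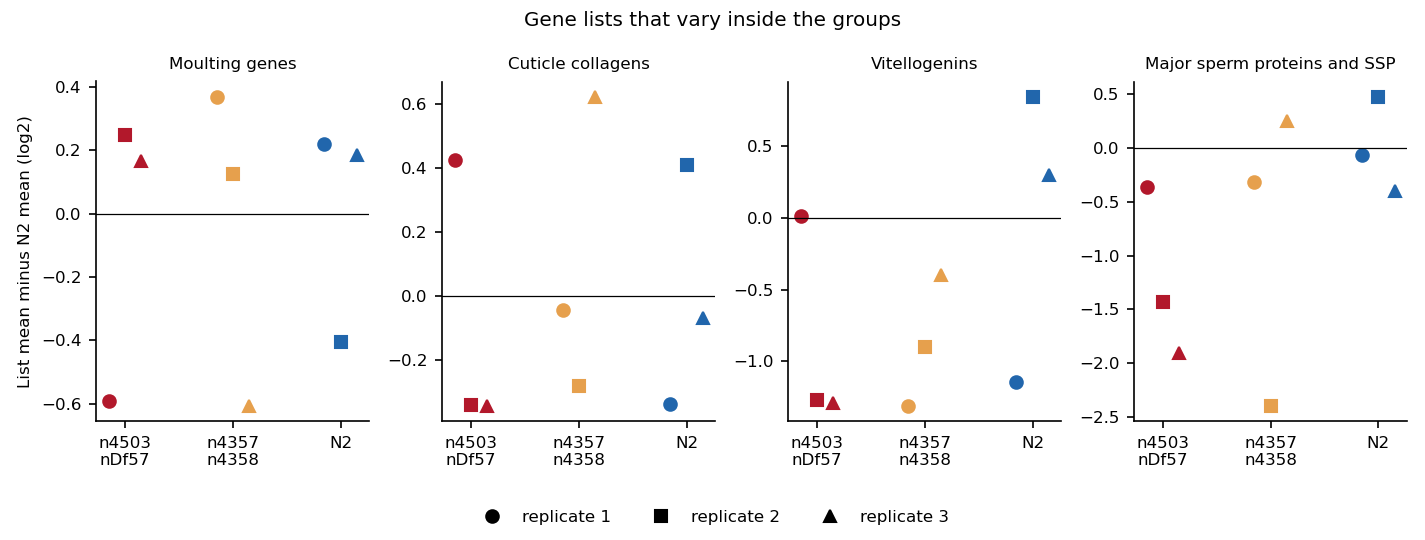
Mean of 4 gene lists on each array minus the N2 mean (log2, vertical axis), with n4503 nDf57, n4357 n4358 and N2 arrays side by side and marker shape giving the replicate number. The moulting genes and cuticle collagens separate arrays inside each genotype, with n4503 nDf57 replicate 1 at -0.59 for moulting genes and 0.42 for collagens.

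Defining markers of the tissues were read as mean levels per group. The 6 oocyte markers averaged 5.18 log2 in n4503 nDf57 and 5.27 log2 in N2. The 6 body wall muscle markers averaged 8.34 log2 in n4503 nDf57 and 8.13 log2 in N2. The 6 epidermis markers averaged 8.20 log2 in n4503 nDf57 and 8.28 log2 in N2, and the 4 male markers 3.71 log2 in n4503 nDf57 and 3.70 log2 in N2. The 7 intestine markers averaged 7.52 log2 in n4503 nDf57 and 7.81 log2 in N2, and the 6 neuron markers 6.36 log2 in n4503 nDf57 and 6.38 log2 in N2. The 6 sperm markers averaged 5.28 log2 in n4503 nDf57 and 5.81 log2 in N2. The widest gaps were thus those of the sperm and intestine markers, both lower in the mutant. The intestine markers include the yolk genes vit-2, vit-5 and vit-6, which differed by -0.41, -1.49 and -0.37 log2. A wider list of 18 intestine genes had a median difference of 0.01 log2, with 10 positive and 8 negative, so the marker gap is not shared across intestine genes. In whole animals, fewer cells of a type and less RNA per cell cannot be told apart. Array medians lay between 4.76 and 4.83 log2 over all 9 arrays.

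No probe set passed limma's test at an adjusted p of 0.05 in n4503 nDf57 against N2, which is 0 of 22548 (0%). The smallest adjusted p was 0.0835, for bath-45, and the next was 0.99998. At an unadjusted p of 0.05, 637 probe sets (2.83%) remained, 387 higher (1.72%) and 250 lower (1.11%), fewer than the 1127.4 that this threshold gives by chance. With limma's array weights 37 probe sets passed. These weights were 0.298, 6.64 and 0.834 for n4503 nDf57 replicates 1, 2 and 3, so the mutant mean then rests mostly on replicate 2. Among genes, all 3 mutant arrays lay above all 3 N2 arrays in 665 of 17118 (3.88%) and below in 474 (2.77%). The difference was positive in 9190 of the 17118 genes and negative in 7928, the background for the sign counts of the lists. The mean difference exceeded 1 log2 in 54 genes that were higher and 78 that were lower in the mutant, and in 33 and 37 of these the groups did not overlap. In 18 genes every mutant array was more than 1 log2 above the N2 mean, and in 16 every one was more than 1 log2 below it.

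**Figure D2:**
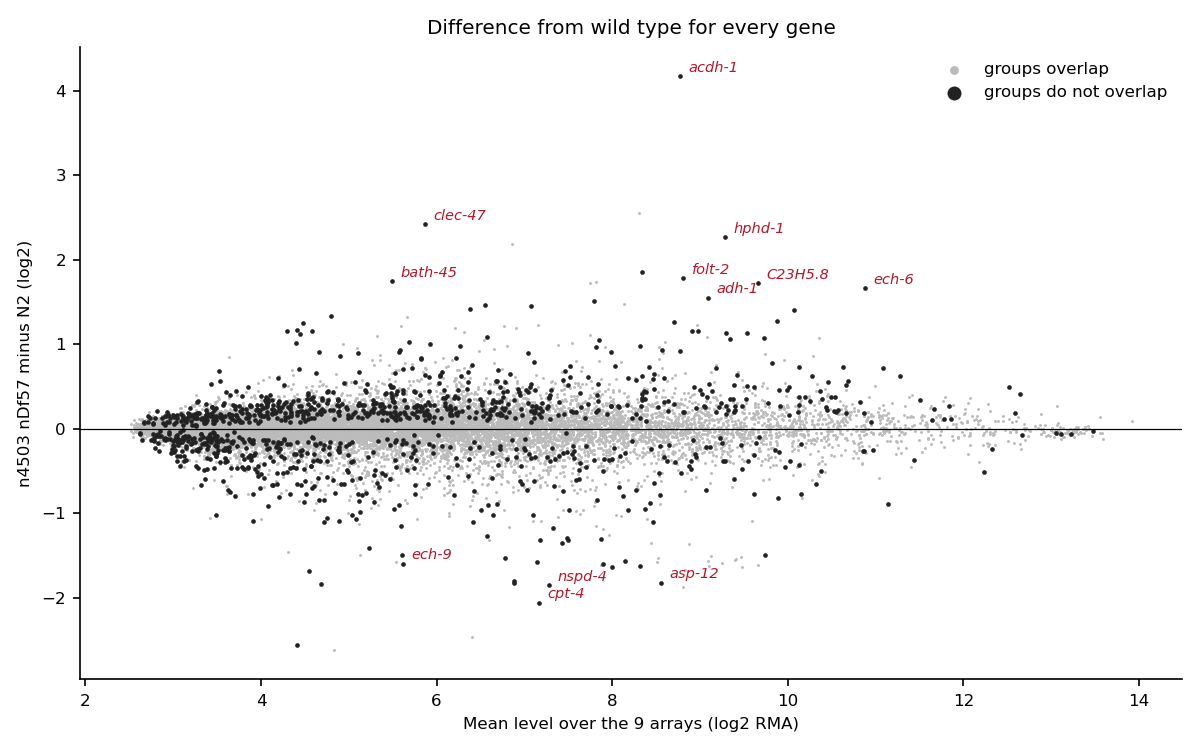
Difference between n4503 nDf57 and N2 (log2, vertical axis) against the mean level over the 9 arrays (log2, horizontal axis), 1 point per gene. Black points are genes whose 3 mutant arrays all lie on one side of the 3 N2 arrays. Most genes lie near 0, and acdh-1 stands highest at 4.18.

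The smallest p of all probe sets was that of bath-45, a gene of the BATH family of proteins with BTB and MATH domains. It read 6.10, 6.39 and 6.25 log2 in the n4503 nDf57 arrays, against 4.38, 4.50 and 4.62 log2 in the N2 arrays. The groups are separated by more than 1 log2, with little spread in either. The difference was 1.75 log2 (SE 0.16), a 3.35-fold higher level, with an adjusted p of 0.0835 in limma. It was 1.82 log2 with the pair of arrays left out. Its adjusted p was 0.0271 without n4357 n4358 replicate 3, 0.0104 with the moulting gene mean as a covariate and 0.000577 with array weights. Over the 21 alternatives it lay between 0.000577 and 0.999985, the highest with the replicate number as a block and the next, 0.811, without n4503 nDf57 replicate 3. The level of bath-45 was 6.04, 5.77 and 5.43 log2 in n4357 n4358, so it lay above N2 on those arrays too. xol-1, the switch gene of sex determination, read 3.09, 2.91 and 2.92 log2 in n4503 nDf57 and 2.99, 2.91 and 2.86 log2 in N2, a difference of 0.05 log2 (SE 0.10).

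The other genes with the smallest p were clec-61 and clec-47 of the C-type lectin family, scl-2, of the secreted SCP-like proteins, ttr-5, a transthyretin-related gene, scrm-4, a phospholipid scramblase gene, adh-1, an alcohol dehydrogenase gene, hach-1 of the propionate shunt, and C31H1.5 and C07A9.9. In all 10 genes the mutant and N2 arrays do not overlap, which the ranking favours. scl-2 read 10.53, 10.25 and 10.55 log2 in n4503 nDf57, against 8.97, 9.04 and 9.48 log2 in N2, 2.43-fold higher. clec-47 read 6.79, 6.99 and 8.48 log2 in n4503 nDf57, against 5.04, 4.79 and 5.15 log2 in N2. Replicate 3 of the mutant was well above the other two, and the difference was 2.43 log2 (SE 0.43). C31H1.5 stood lower, at 3.38, 3.29 and 3.20 log2 in n4503 nDf57 against 4.09, 4.07 and 3.87 log2 in N2. C07A9.9 likewise read 5.11, 5.26 and 5.21 log2 in n4503 nDf57, against 6.33, 6.25 and 5.85 log2 in N2. Replicate 1 of the mutant lay with its group in each of these genes.

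**Figure D3:**
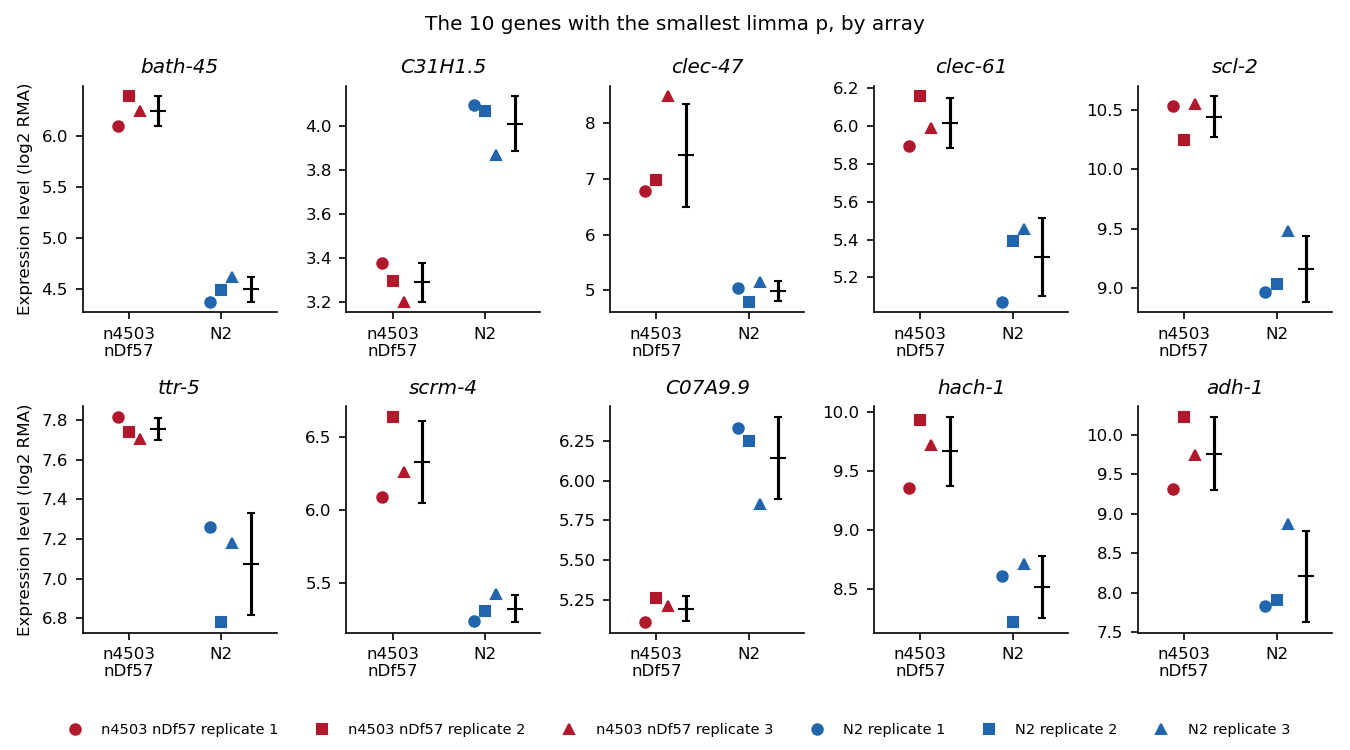
Level of the 10 genes with the smallest limma p on each array (log2, vertical axis of each panel), n4503 nDf57 left and N2 right, with mean and SD (n = 3) as bars beside the points. The groups do not overlap in any panel. The vertical axes differ between panels and do not start at 0.

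The highest median of all lists was that of propionate breakdown. Propionate, which comes from some amino acids and odd-chain fatty acids, is normally degraded by enzymes that need vitamin B12. When B12 is low, nematodes use a shunt that works without it, which is switched on through the nuclear receptors nhr-10 and nhr-68. The list holds 14 measured genes of the shunt, the B12-dependent route and their regulators. All 14 had a positive difference in the probe set that represents them, with a median of 0.59 log2 against 0.01 log2 over all genes. Probe sets of 8 of the 14 can detect related copies, and the 6 others also had a median of 0.59 log2. In 9 of the 14 the mutant arrays lay above all N2 arrays and in 0 below (all genes, 3.88% and 2.77%), and 11 had a p under 0.05 in the higher direction, against 1.67% of all genes, with 0 in the lower direction (1.23% of all genes). The list mean stood 0.86, 1.11 and 1.03 log2 above the N2 mean in the n4503 nDf57 arrays, and the N2 arrays lay at 0.16, -0.52 and 0.36 log2. Replicate 1 of the mutant was lowest of its group and still above every N2 array. The median was 0.55 log2 with the pair of arrays left out.

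The enzymes of the shunt carried the large differences. acdh-1, the acyl-CoA dehydrogenase of the first step, read 10.76, 11.68 and 11.65 log2 in n4503 nDf57, against 8.24, 3.77 and 9.54 log2 in N2. Its N2 arrays spread over more than 5 log2, so the 18.1-fold difference of the means (4.18 log2, SE 1.71) rests in good part on N2 replicate 2. Without that array the difference was 2.47 log2. ech-6, an enoyl-CoA hydratase, read 11.45, 12.17 and 11.90 log2 in n4503 nDf57, against 10.23, 9.56 and 10.74 log2 in N2. hach-1, the hydrolase of the next step, read 9.36, 9.93 and 9.72 log2 in n4503 nDf57, against 8.61, 8.22 and 8.72 log2 in N2, 2.23-fold higher. hphd-1, the dehydrogenase that follows, read 10.66, 10.54 and 10.46 log2 in n4503 nDf57, against 8.61, 7.39 and 8.86 log2 in N2. Its 3 mutant arrays agree closely, whereas wild type again varied, with replicate 2 lowest. alh-8, of the last step, was chosen after its values were seen, to complete the shunt, and read 11.31, 11.64 and 11.58 log2 in n4503 nDf57, against 11.05, 10.52 and 10.81 log2 in N2. All 5 shunt enzymes therefore had separated groups, with N2 replicate 2 the lowest array in each.

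The B12-dependent route stood higher by less. pcca-1, a subunit of propionyl-CoA carboxylase, read 9.42, 9.35 and 9.08 log2 in n4503 nDf57, against 8.90, 8.57 and 8.78 log2 in N2. mmcm-1, the B12-dependent methylmalonyl-CoA mutase, differed by 0.27 log2 (SE 0.11), also with separated groups. A second probe set of mmcm-1 differed by 0.34 log2 with overlap. In pccb-1 and mce-1 of the same route the groups overlapped, with differences of 0.37 and 0.38 log2. mmaa-1 and mmab-1, which handle the cofactor, differed by 0.56 and 0.62 log2. The receptor genes overlapped between the groups, with differences of 0.08 log2 for nhr-10 and 0.68 log2 for nhr-68. That of nhr-68 was 0.37 log2 without N2 replicate 2, and a second probe set of nhr-10 differed by -0.03 log2. dhgd-1, which clears the hydroxyglutarate that the hphd-1 enzyme makes, read 8.21, 9.03 and 8.87 log2 in n4503 nDf57, against 7.41, 6.20 and 7.96 log2 in N2.

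**Figure D4:**
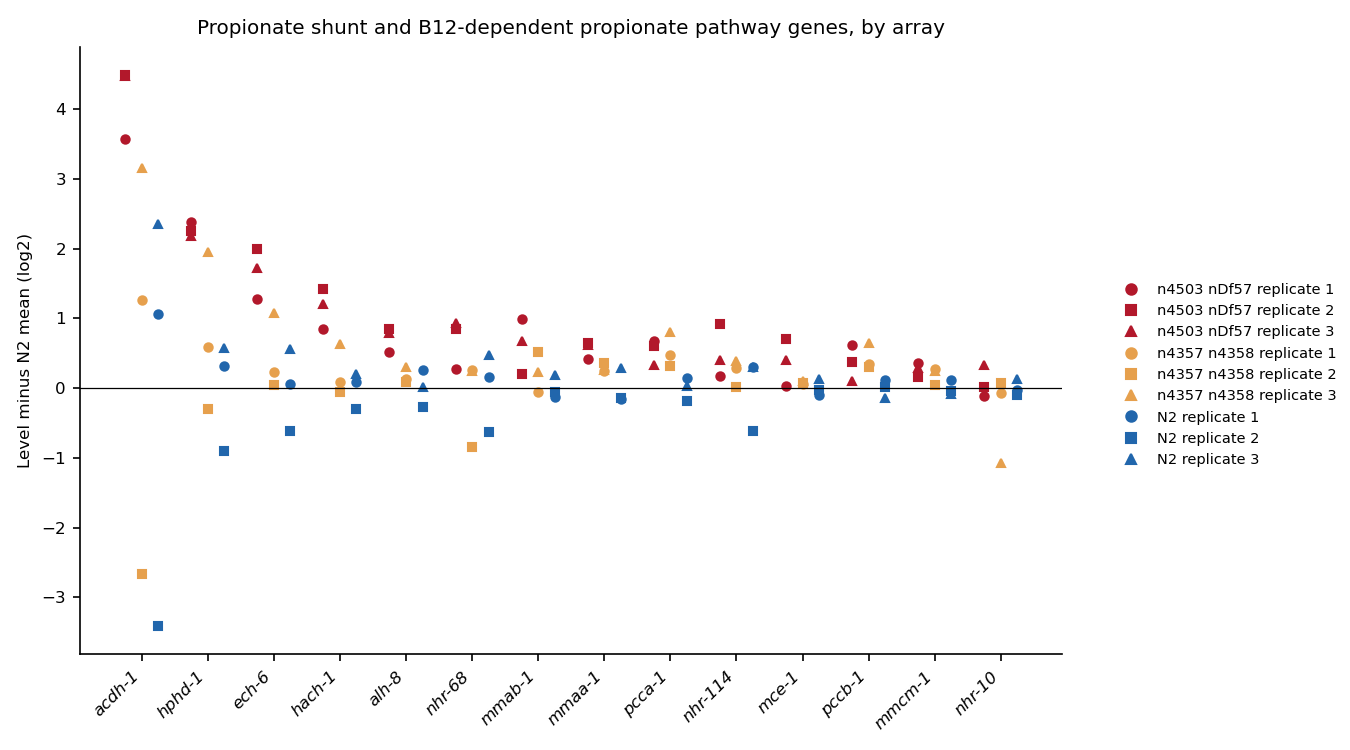
Level of the 14 propionate pathway genes on each array minus the N2 mean of the gene (log2, vertical axis), with n4503 nDf57, n4357 n4358 and N2 side by side and marker shape giving the replicate. The n4503 nDf57 points lie above all N2 points in 9 genes, and N2 replicate 2 is the lowest acdh-1 point.

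Of the 17 genes of the methionine cycle and folate use, which share B12 with propionate breakdown, 9 had a positive difference, with a median of 0.06 log2. Separated groups were seen in 2 genes above and 1 below (11.8% and 5.88%, against 3.88% and 2.77% of all genes). folt-2, of the folate transporter family, read 9.69, 9.93 and 10.12 log2 in n4503 nDf57, against 8.54, 7.002 and 8.84 log2 in N2. mtrr-1, the reductase that keeps methionine synthase active, read 8.59, 8.77 and 8.49 log2 in n4503 nDf57, against 7.85, 7.71 and 8.48 log2 in N2. Both stood higher, though mtrr-1 by a margin of only 0.01 log2 between the nearest arrays. cbs-1, a cystathionine beta-synthase gene, stood lower, at 8.11, 7.40 and 7.38 log2 in n4503 nDf57 against 8.74, 8.34 and 8.69 log2 in N2.

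Glycolytic genes and the respiratory chain also stood higher in the mutant, by smaller amounts. Of 16 glycolytic genes, 13 had a positive difference, with a median of 0.32 log2, and in 8 the mutant arrays lay above all N2 arrays and in 1 below (50% and 6.25%, against 3.88% and 2.77% of all genes). The median was 0.21 log2 without n4503 nDf57 replicate 2. Probe sets of 8 of the 16 can detect related copies, those of gpd-2, gpd-3, aldo-1 and aldo-2 among them. The 8 others had a median of 0.38 log2. gpd-3, a glyceraldehyde-3-phosphate dehydrogenase gene, read 12.64, 12.86 and 12.72 log2 in n4503 nDf57, against 12.25, 12.17 and 12.32 log2 in N2, a difference of 0.49 log2 (SE 0.11). aldo-1, an aldolase gene, read 10.48, 10.10 and 9.74 log2 in n4503 nDf57, against 9.67, 9.17 and 9.13 log2 in N2. The groups are separate in both, and the related gpd-2, pgk-1, tpi-1, aldo-2 and ldh-1 were higher by 0.26 to 0.50 log2. The highest of these was ldh-1, a lactate dehydrogenase gene, whose difference was 0.29 log2 without N2 replicate 2. pfk-1.2, a phosphofructokinase gene, was the separated gene that stood lower, by 0.31 log2. The list mean was above the N2 mean by 0.17, 0.40 and 0.21 log2 in the mutant arrays, and N2 lay at 0.08, -0.15 and 0.08 log2.

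pck-1, the phosphoenolpyruvate carboxykinase of glucose synthesis, read 10.38, 10.12 and 9.59 log2 in n4503 nDf57, against 9.12, 8.52 and 9.04 log2 in N2. In the respiratory chain and ATP synthase, 60 of 65 genes had a positive difference, with a median of 0.15 log2, 6 with separated groups above and 1 below (9.23% and 1.54%, against 3.88% and 2.77% of all genes). The median was 0.08 log2 with the pair of arrays left out, and also without N2 replicate 2 alone. The exception below was cyc-2.2, a cytochrome c gene, which read 3.63, 4.23 and 4.01 log2 in n4503 nDf57, against 5.40, 5.97 and 5.98 log2 in N2. Of 73 cytosolic ribosomal protein genes, 58 had a negative difference, but the median was only -0.03 log2 and turned to 0.01 log2 when arrays were centred on ribosomal and proteasome genes.

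Genes of fatty acid activation and beta-oxidation split. Of 62 genes, 29 had a positive difference, and separated groups were seen in 8 above (12.9%) and 8 below (12.9%), against 3.88% and 2.77% of all genes. acdh-1 and ech-6 are also in this list. On the higher side, kat-1, the thiolase of mitochondria, read 10.92, 11.18 and 10.94 log2 in n4503 nDf57, against 10.42, 10.13 and 10.30 log2 in N2. hacd-1, a hydroxyacyl-CoA dehydrogenase gene, read 9.72, 9.44 and 9.61 log2 in n4503 nDf57, against 8.37, 8.42 and 8.53 log2 in N2. Mutant arrays of both genes are close together and more than 0.5 log2 above wild type.

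On the lower side, cpt-4, a carnitine palmitoyltransferase gene, had the largest difference of the genes with separated groups and a mean level of at least 5 log2. It read 7.45, 5.44 and 5.14 log2 in n4503 nDf57, against 7.97, 8.30 and 7.93 log2 in N2, a 4.16-fold lower mean (-2.06 log2, SE 0.53). Replicate 1 of the mutant lay nearer to wild type than to its own group. Without it the difference was -2.78 log2, and cpt-4 then had an adjusted p of 0.0277 in limma. It was 0.0277 with array weights too, 0.12 with the pair of arrays left out and at least 0.103 in every other alternative run, up to 1 (20 alternatives). ech-9, an enoyl-CoA hydratase family gene, read 4.50, 5.34 and 4.20 log2 in n4503 nDf57, against 5.72, 7.14 and 5.96 log2 in N2. maoc-1, dhs-28 and acox-1.1, which act in peroxisomal beta-oxidation, were lower by 0.24 to 0.50 log2, each with separated groups. Without N2 replicate 2 the differences were only -0.08 log2 for dhs-28 and -0.16 log2 for acox-1.1, and a second probe set of dhs-28 differed by -0.10 log2 with overlap.

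Sperm genes were 8 of the 12 lowest differences named, with wide spread inside the mutant. The probe sets of all 8 can also detect related sequences. All 31 genes of the major sperm proteins, the cytoskeleton of the crawling nematode sperm, and their SSP relatives had a negative difference, with a median of -1.51 log2. The groups did not overlap in 7 of them, all lower in the mutant (22.6%, against 2.77% of all genes). The list mean stood at -0.36, -1.43 and -1.90 log2 in the mutant arrays, against -0.07, 0.47 and -0.40 log2 in N2. Replicate 1 of the mutant lay inside the wild-type range, while replicates 2 and 3 lay far below it. msp-45 read 8.77, 7.23 and 6.77 log2 in n4503 nDf57, against 9.12, 9.76 and 8.77 log2 in N2. Its nearest arrays were almost level, at 8.7693 log2 in n4503 nDf57 replicate 1 and 8.7698 log2 in N2 replicate 3. The same 2 arrays were close in msp-152 (8.56 and 8.60 log2) and in msp-3 (8.54 and 8.57 log2), which also count as separated. msp-152, msp-33 and msp-3 had the same order of arrays and differences of -1.64, -1.60 and -1.56 log2. Probe sets of 27 of the 31 can detect related copies, so they are not separate measurements. The 4 others are all SSP genes, ssp-16, ssp-19, ssp-34 and ssp-35, with a median of -0.44 log2. That median therefore measures no major sperm protein gene, and ssp-19 and ssp-34 averaged only 4.41 and 4.84 log2 in N2. The list mean stood at -0.32, -2.39 and 0.25 log2 in the n4357 n4358 arrays, so it varied inside that strain too. How far timing inside the genotypes enters the differences of this list was not tested beyond the values given. The list median was -1.61 log2 with the moulting gene mean as a covariate. It was -1.75 log2 with the pair of n4503 nDf57 replicate 1 and N2 replicate 2 left out.

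Beyond that family, 33 of 51 other sperm genes had a negative difference, with a median of -0.09 log2, and 9 lay entirely below N2 and 0 above (17.6% and 0%, against 2.77% and 3.88% of all genes). nspd-4, of a sperm-expressed peptide family, read 6.95, 6.66 and 6.41 log2 in n4503 nDf57, against 7.57, 9.24 and 8.77 log2 in N2. nspd-1 and nspd-2 differed by -1.80 and -1.82 log2, and msd-4, with a major sperm protein domain, by -1.58 log2. Probe sets of these 3 genes and of nspd-4 can detect related copies, so they are not separate measurements. In the list of 51, 17 probe sets are of that kind, and the 34 others had a median of -0.01 log2. spe-10, needed to build sperm organelles, differed by -0.35 log2, with separated groups. fog-3, which directs germ cells to the sperm fate, went the other way at 6.63, 6.22 and 5.91 log2 in n4503 nDf57 against 6.14, 5.45 and 4.81 log2 in N2, with overlap.

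Yolk and cuticle genes did not separate the genotypes when all arrays were kept. The 5 vitellogenin genes had negative differences, with a median of -0.41 log2, but none had separated groups. The median was -0.21 log2 without N2 replicate 2, and -0.99 log2 without N2 replicate 1 or without n4503 nDf57 replicate 1. With the pair of n4503 nDf57 replicate 1 and N2 replicate 2 left out it was -0.50 log2. In that setting 4 of the 5 genes lay entirely below N2, against 2549 of 17118 over all genes. With the moulting gene mean as a covariate the median was -0.48 log2. There, 4 genes had an unadjusted limma p under 0.05 in the lower direction, against 404 of 17118 over all genes. The list mean of the vitellogenins was 0.01, -1.27 and -1.29 log2 in the n4503 nDf57 arrays, against -1.14, 0.84 and 0.30 log2 in N2. vit-4 read 6.06, 4.53 and 4.48 log2 in n4503 nDf57 and 4.90, 7.87 and 7.05 log2 in N2. Its other probe sets differed by -1.66 and 0.08 log2, both with overlap. The probe sets of vit-4, vit-5 and vit-6 can detect related copies, so the vitellogenins are not 5 separate measurements. vit-2 averaged only 3.33 log2 in N2. Of 146 cuticle collagens, 55 had a positive difference, with a median of -0.07 log2. Separated groups were seen in 1 gene above and 0 below (0.68% and 0%, against 3.88% and 2.77% of all genes). col-129 read 10.29, 6.22 and 6.15 log2 in n4503 nDf57 and 6.53, 10.79 and 8.41 log2 in N2. Its high arrays are those with low moulting genes in both genotypes. wrt-10, a Hedgehog-related gene, had the opposite order, at 8.17, 10.93 and 10.62 log2 in n4503 nDf57 and 10.57, 7.43 and 10.30 log2 in N2.

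The factors of the small RNA pathways had medians near 0. Of 16 piRNA pathway factors, 9 had a positive difference, with a median of 0.02 log2. Separated groups were seen in 1 gene above and 0 below (6.25% and 0%, against 3.88% and 2.77% of all genes). That gene was parn-1, the nuclease that trims piRNA ends, at 5.799, 5.88 and 5.51 log2 in n4503 nDf57 against 5.35, 5.08 and 5.38 log2 in N2. The 17 Argonaute genes had a median of 0.09 log2, with 3 separated above and 0 below (17.6% and 0%, against 3.88% and 2.77% of all genes), among them sago-1, a carrier of secondary small RNAs, at 0.36 log2 (SE 0.11). The 30 RNA interference genes and the 18 P granule genes had medians of 0.06 and 0.08 log2. pgl-1, a core P granule protein, read 6.20, 6.42 and 5.84 log2 in n4503 nDf57, against 6.42, 5.14 and 5.07 log2 in N2, with overlap. Of 103 BATH, MATH and BTB genes, 65 had a positive difference, with a median of 0.02 log2, and 7 lay entirely above N2 and 2 below (6.80% and 1.94%, against 3.88% and 2.77% of all genes). bath-45 had the highest difference in that list.

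Of 220 C-type lectin genes, 15 lay entirely above N2 and 7 below (6.82% and 3.18%, against 3.88% and 2.77% of all genes), with a median of -0.00 log2. clec-4 read 7.81, 7.11 and 6.66 log2 in n4503 nDf57, against 5.56, 5.64 and 6.13 log2 in N2. irg-3, an infection response gene, stood lower, at 8.77, 9.31 and 9.29 log2 in n4503 nDf57 against 10.79, 11.02 and 10.02 log2 in N2. Among lysozymes, lys-7 differed by 1.11 log2 with overlap, and lys-4 by -0.77 log2 with separated groups, a value of -0.30 log2 without N2 replicate 2. The epidermal antimicrobial peptides had 15 of 18 negative differences, with a median of -0.08 log2, and nlp-30 read 7.63, 7.90 and 8.06 log2 in n4503 nDf57, against 8.29, 9.79 and 8.81 log2 in N2.

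The 64 UDP-glucuronosyltransferase genes, which conjugate toxins, had 4 separated above and 4 below (6.25% each way, against 3.88% and 2.77% of all genes). ugt-64 read 6.40, 6.35 and 6.24 log2 in n4503 nDf57, against 5.54, 5.79 and 5.63 log2 in N2, and ugt-5 differed by -0.85 log2. Aspartic proteases of the gut differed in both directions. asp-13 read 10.96, 10.996 and 11.02 log2 in n4503 nDf57 against 9.38, 9.40 and 9.98 log2 in N2, while asp-12 read 8.20, 7.69 and 6.60 log2 in n4503 nDf57 against 8.61, 10.73 and 8.60 log2 in N2. Without N2 replicate 2, the difference of asp-12 was -1.11 log2 in place of -1.82 log2. Of 27 targets of DAF-16, the transcription factor of insulin signalling, 20 had a positive difference, with a median of 0.09 log2. In that list sip-1, a small heat shock protein gene, differed by 1.74 log2 with overlap (a second probe set by 1.80 log2 without), and fat-7, a fatty acid desaturase gene, by -0.95 log2 with separated groups, or -0.46 log2 without N2 replicate 2.

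**Figure D5:**
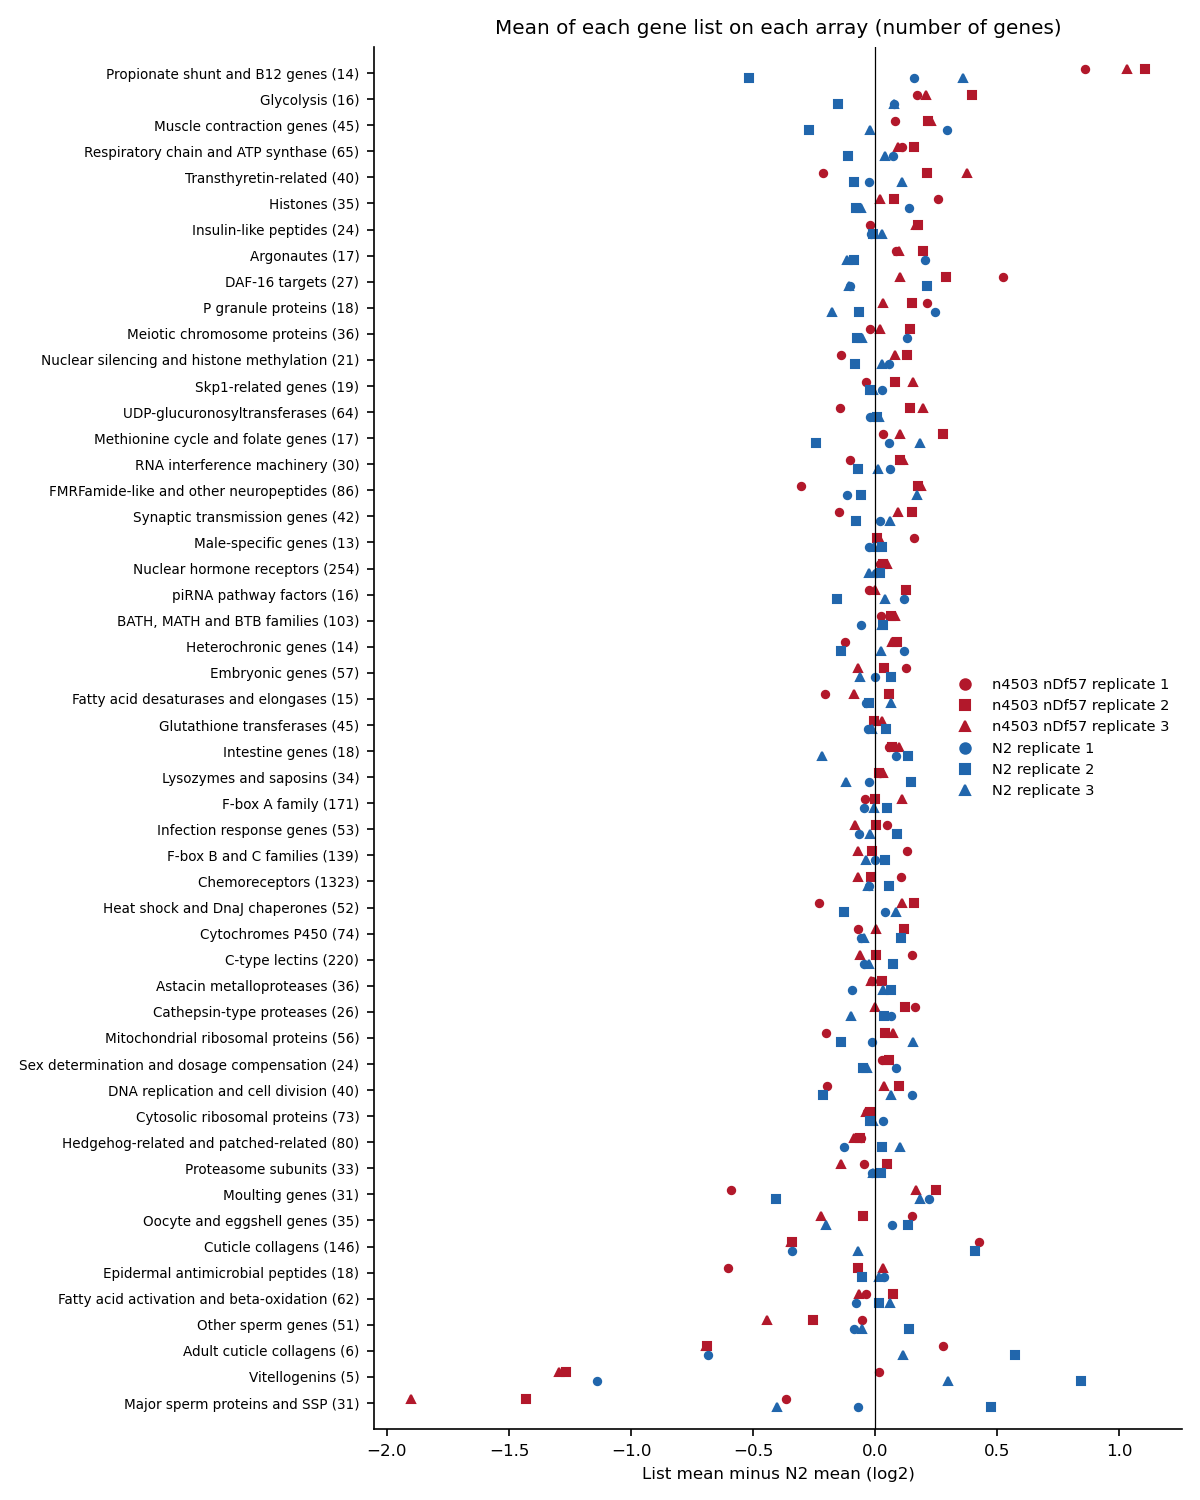
Mean of each gene list on each array minus the N2 mean (log2, horizontal axis), 1 line per list with its number of genes, n4503 nDf57 arrays drawn above N2 arrays. The 3 mutant arrays lie to the right of all N2 arrays for propionate breakdown, glycolysis and the respiratory chain, and to the left for cytosolic ribosomal proteins.

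Of the 52 lists, 3 had all mutant array means above all N2 means and 1 had all below, a description of lists that share genes and that was not tested. Muscle genes had a positive difference in 42 of 45 members, with a median of 0.16 log2, but 0 members lay entirely above N2, and the median was 0.07 log2 with the pair of arrays left out. Leaving out 1 array, it was 0.08 log2 without N2 replicate 2 and 0.32 log2 without N2 replicate 1. Histone genes had a median of 0.13 log2, of 0.06 log2 without n4503 nDf57 replicate 1, and of -0.00 log2 over the 14 whose probe sets detect 1 gene. The large families of nuclear hormone receptors (254 genes), F-box A proteins (171 genes) and chemoreceptors (1323 genes) had medians of 0.03, 0.01 and 0.01 log2, with 4.72%, 3.51% and 2.19% of members entirely above N2. For all genes that share was 3.88%. Among the highest single genes outside the lists were T05E12.6, C23H5.8, T07D3.9 and F32D8.12, with differences of 1.86, 1.73, 1.47 and 1.45 log2. F58A6.9 was among the lowest, at -1.52 log2.

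The n4503 nDf57 arrays were last set against the other double mutant, n4357 n4358, to test whether the effect differs between the strains. No probe set passed, which is 0 of 22548 (0%), with a smallest adjusted p of 0.977, and 557 (2.47%) had a p under 0.05. For genes, the n4503 nDf57 arrays lay above all n4357 n4358 arrays in 616 (3.6%) and below in 334 (1.95%). This comparison shares the n4503 nDf57 arrays with the one against N2.

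The propionate genes had a median difference of 0.41 log2 between n4503 nDf57 and n4357 n4358, positive in 13 of 14. Of these genes, 7 lay entirely above and 0 below, against 3.6% and 1.95% of all genes. In the B12-dependent route, pcca-1, pccb-1 and mmcm-1 differed little between the mutants, by 0.005, -0.07 and 0.08 log2. mce-1, mmaa-1 and mmab-1 differed by 0.30, 0.27 and 0.39 log2. The glycolytic genes had a median difference of 0.10 log2 between the mutants, positive in 13 of 16. acdh-1 read 8.44, 4.51 and 10.34 log2 in n4357 n4358, a spread like that of N2, and lay under all 3 n4503 nDf57 arrays. hach-1 read 8.61, 8.45 and 9.15 log2 in n4357 n4358, and the difference of n4503 nDf57 from it was 0.93 log2 (SE 0.23). clec-47 read 4.65, 5.48 and 5.40 log2 in n4357 n4358, 2.24 log2 (SE 0.43) under n4503 nDf57. asp-13 differed by 1.35 log2 and C23H5.8 by 1.85 log2 in the same direction. lys-4, below N2 in both mutants, read 8.72, 8.11 and 8.81 log2 in n4357 n4358 and was 1.22 log2 higher in n4503 nDf57. None of these reached an adjusted p of 0.05 except with array weights, where it was 0.018 for hach-1 and asp-13, 0.025 for C23H5.8 and 0.045 for clec-47 and lys-4. bath-45 differed between the mutants by 0.50 log2 (SE 0.16), with an adjusted p of 0.045 with array weights, and scl-2, scrm-4 and C07A9.9 by 0.40, 0.20 and -0.02 log2.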

How the data were processed

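The authors made log2 expression levels per probe set with RMA and used limma, per the submitters' processing notes, which give no version; the deposited log2 values were used as they are. Labelling was by 3' in vitro transcription, per the labels. RMA equalises array distributions, so a shift common to most genes is removed and low levels are compressed. limma 3.58.1 in R 4.3.3 fitted a mean per group to all 9 arrays (6 residual and 2.38 prior degrees of freedom), with Benjamini-Hochberg adjustment over 22548 probe sets and a threshold of 0.05. An exact permutation test of 3 arrays against 3 cannot go below 0.1 and was not used. In the probe annotation, 20766 probe sets name 1 gene, 887 several and 895 none. Of the first, 20701 matched the reference gene table.

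Members and the 52 gene lists were chosen with earlier results of these data known. Named genes are bath-45, xol-1, prg-1 and prg-2, the 12 highest and 12 lowest differences among genes with separated groups and a mean of at least 5 log2, the 10 smallest p, and, per list, the smallest p and the 2 extremes on each side. Genes given beside them from the propionate, glycolysis and beta-oxidation lists complete those pathways and were chosen after their values were seen. The fit was run on simulated data with known changes and independent noise for each probe set. That noise holds no timing shared across genes, so the run does not cover this feature of the arrays. Groups of 3 arrays limit the precision of each value.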

Additional observations from a re-analysis of the deposited data

Results flagged for a closer look

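In mtrr-1, and in the mean of the methionine cycle and folate genes, all 3 n4503 nDf57 arrays lay above the N2 mean and all 3 n4357 n4358 arrays below it. mtrr-1 was 0.69 log2 higher in n4503 nDf57 than in n4357 n4358, and the list mean was 0.18 log2 higher. The difference of mtrr-1 had an adjusted p of 0.977 in limma, and with array weights it was 0.85 log2 with an adjusted p of 0.0497. That of the list mean was not tested.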

How the results depend on the processing

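Over 21 alternatives, the count of 0 probe sets for n4503 nDf57 against N2 became 37 with array weights (32 higher and 5 lower), 1 with cyclic loess, 1 with centring on ribosomal and proteasome genes, 1 with the moulting gene mean as covariate and 637 at an unadjusted p of 0.05. Leaving out 1 array at a time gave 0 to 2, with 1 without n4357 n4358 replicate 3 and 2 without n4503 nDf57 replicate 1, both of cpt-4. The single probe set was bath-45 each time. Array weights gave n4503 nDf57 replicate 2 a weight of 6.64, replicate 1 a weight of 0.298 and replicate 3 a weight of 0.834. In n4357 n4358 they were 0.856, 3.35 and 0.148 for replicates 1, 2 and 3. Results with array weights therefore rest mostly on 1 array of each mutant. For n4503 nDf57 against n4357 n4358 the count was 142 with array weights and 0 in every other alternative run, leaving out 1 array included. The causes were not tested.

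Leaving out N2 replicate 2, n4503 nDf57 replicate 1 and n4357 n4358 replicate 3 together was chosen after seeing the data. Among the named genes, xol-1 turned to -0.0081 log2 both without the pair and without these 3 arrays. Leaving out 1 array at a time turned xol-1 (-0.00224 to 0.0879 log2), nhr-10 (-0.0486 to 0.175 log2), col-129 (-2.39 to 0.086 log2) and wrt-10 (-0.53 to 1.34 log2), the last 2 without N2 replicate 2 and wrt-10 also without n4503 nDf57 replicate 2. Of the 76 named genes, 72 kept their sign under every alternative run, as did the medians of 21 of the 52 lists. Whether arrays of the same replicate number share more than that number is not known here. Same-numbered n4503 nDf57 and N2 arrays correlated in their deviations at -0.30, -0.55 and 0.40, values of both signs that cannot decide it. The replicate block gave 0 calls in limma, with 521 at an unadjusted p of 0.05 against 637. With 3 arrays per group, small differences could not be told from spread.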
